A study of Mus musculus with 6 samples.

Results

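Greb1, both estrogen receptor genes, the progesterone receptor gene Pgr, the receptor co-regulator genes Nrip1 and Ncoa3, and the retinoic acid receptor gene Rara were followed in the poly(A) RNA of mouse skin fibroblasts (MSFs). They are 7 of the 22162 genes in the deposited table, found by their gene symbol. Greb1 was chosen by its log2 fold change in these same libraries, lower in TAM than in EtOH, so its values are a description with no test. The other 6 were listed by function, with earlier results of these data known. The MSFs came from the dorsal skin of FASST mice on an FVB background, and every sample carries the same alleles. These are a TAM-inducible Cre-ERT2 recombinase driven by pro-alpha 2(I) collagen regulatory sequence, and a lox-stop-lox p27Kip1 allele with IRES-GFP at the ROSA26 locus. The 3 EtOH samples, labelled non-senescent, received the ethanol vehicle, and the 3 TAM samples, labelled senescent, received 10 µM TAM for 48 h. Cells were kept at 3% oxygen in DMEM with serum. The methods describe the MSF line as isolated from a female mouse and give no age for it, and nothing says that the 3 samples of a group came from separate animals or cultures, so the spread between them may be technical.

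Estrogen receptors are transcription factors that bind DNA as dimers once a ligand is bound, at a palindromic sequence called the estrogen response element. Ligand changes the shape of the receptor, which then holds coactivators such as Ncoa3 or corepressors, and TAM, through its active metabolites, competes with estrogen for the same pocket. In breast cells TAM mostly acts as an antagonist, while in other tissues such as the uterus it can act as an agonist. Greb1 is among the best known genes induced by estrogen and encodes a chromatin-bound cofactor of the receptor, and Pgr, Nrip1 and Rara are also classical targets in breast cells. In these MSFs TAM is at once a ligand of the endogenous receptors and the agent that switches on Cre-ERT2, so an effect of the drug on the receptors and an effect of p27Kip1 activation cannot be told apart. The methods do not say how long after the TAM treatment the RNA was taken, so whether the drug was still present is not known.

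The consensus element, GGTCA and TGACC with any 3 bases between them, reads the same on both strands and was searched within 50 kb on each side of the annotated start of each gene in mm9. It is shown here because it is the sequence that the receptors recognize. There were 2 copies around Greb1, 1 at Nrip1 and none in the windows of the other 5 members. Each is printed 5′ to 3′ on the strand of its gene, with the 13 bases of the element in capitals and 20 bases on each side.
Greb1 upstream site: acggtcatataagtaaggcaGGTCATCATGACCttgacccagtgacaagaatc
Greb1 intronic site: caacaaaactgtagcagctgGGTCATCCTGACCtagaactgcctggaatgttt
Nrip1 intronic site: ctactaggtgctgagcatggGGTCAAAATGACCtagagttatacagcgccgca
The Greb1 sites lie at chr12:16854935-16854947, 47249 bases upstream of the gene start, and at chr12:16767337-16767349, in an intron 40349 bases downstream of it. The Nrip1 site lies at chr16:76373931-76373943, in an intron 135 bases downstream of the gene start. Of the 11874 tested genes with an annotated start, 11.8% had at least 1 copy in such a window, 0.674% had at least 2, and 2.27% had at least 1 within 10 kb. The window of 50 kb was chosen after the sequence was seen, and both Greb1 sites lie beyond 10 kb. These shares are therefore no test of the sites at Greb1. These matches are a description of the sequence. Binding of the receptor was not measured in these samples.

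RefSeq promoter windows, from 250 bases before to 50 bases after a gene start in GRCm38.p6, were given for 6 of the 7 members, all but Ncoa3. No window of a member held the whole element, and 0.07% of the 32851 windows in the table did. At that share none is the usual outcome for 12 windows, so its absence says nothing about the members. An arm of it, GGTCA or its complement TGACC, was in 7 of the 12 windows of members and in 40.5% of all windows. Of the Greb1 windows, that at chr12:16757190-16757489 held 2 arms and is not printed. The more upstream one (chr12:16800837-16801136, minus strand) is shown because Greb1 had the largest change of the set, with the only arm of this window in capitals.
Greb1 promoter: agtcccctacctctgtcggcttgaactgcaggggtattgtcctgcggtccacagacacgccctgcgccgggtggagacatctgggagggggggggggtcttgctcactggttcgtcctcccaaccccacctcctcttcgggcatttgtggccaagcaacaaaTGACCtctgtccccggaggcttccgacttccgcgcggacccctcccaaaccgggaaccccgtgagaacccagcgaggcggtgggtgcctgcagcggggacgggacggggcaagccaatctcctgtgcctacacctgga

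Values are the normalized counts deposited by the authors, whose scaling the table does not state, and their sums per library lay between 14952367 and 17314953. Testing was limited to the 11877 genes with 3 or more libraries at or above 16.2 normalized counts, equal to 1 c.p.m. The log2 fold change (log2FC) is the TAM mean minus the EtOH mean of log2(normalized counts + 1), with the standard error (SE) and the Benjamini-Hochberg adjusted p of limma, called under 0.05. At that level 29 genes were called, 0.244% of those tested, and 9 of them (0.0758% of those tested) were lower in TAM. A fit that also blocked on replicate number called 192 genes (1.62%). Cdkn1b, which encodes p27Kip1, had between 1427 and 3074 normalized counts in the EtOH libraries and between 1520 and 1699 in the TAM libraries, and the sources used here do not say if transgene reads would be counted there. All 10 fibroblast markers were expressed, and their summed level was 1962055 to 2082633 normalized counts in EtOH and 1278753 to 1594317 in TAM. The summed levels of markers of other skin cells were far below that of the fibroblast markers but not absent. The highest, that of mural and smooth muscle markers, reached 9071 in a TAM library. The summed level of 8 keratinocyte markers was 81 to 92 normalized counts in EtOH and 66 to 126 in TAM. Krt14 and Cdh1 were under 10 in every library. That of 7 macrophage markers was 186 to 487 in EtOH and 291 to 473 in TAM (Ptprc under 10, 4 tested). Of these 4, 2 were higher in TAM without overlap, as were 9.19% of all genes tested, and 2 had a negative log2FC. For 6 melanocyte markers the sum was 404 to 1010 in EtOH and 295 to 759 in TAM (Dct under 10, 4 tested). For 6 adipocyte markers it was 12 to 338 in EtOH and 40 to 104 in TAM (Adipoq under 10, 1 tested).

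Greb1 (ENSMUSG00000036523) lies on the minus strand of chromosome 12 of mm9, spanning 16677421 to 16807692 and containing 35 exon blocks. It had 1751, 2191 and 2408 normalized counts in EtOH replicates 1, 2 and 3 and 79.3, 237 and 466 in TAM replicates 1, 2 and 3. The groups lay far apart, with the lowest EtOH value 3.76 times the highest TAM value. The means were 2117 ± 335 (SD, n = 3) and 261 ± 194 (SD, n = 3), an 8.12-fold lower mean in TAM. The log2FC was −3.34 (SE 0.58, or 0.40 with the replicate block), the 15th lowest value among the genes tested. Without TAM replicate 1, the library with the least Greb1, it was −2.66. The size of the difference varied between pairs, since the TAM value was 4.53% of that of the EtOH library with the same number in replicate 1, 10.8% in replicate 2 and 19.3% in replicate 3. The fibroblast marker sum was lower in TAM too, although 3 of the 10 markers had a positive log2FC and 7 a negative one. Of 7 endothelial markers only 1 passed the filter, and Cdh5, Emcn and Tie1 were under 10 normalized counts in every library. The 1 tested lay lower in TAM without overlap, as did 11.4% of all genes tested, with a log2FC of −3.71. It was called with the replicate block, as were 0.615% of genes in that direction. It may have passed the filter through the EtOH libraries alone, so these values are a description. The summed level of the 7 endothelial markers was 92 to 241 normalized counts in EtOH and 25 to 45 in TAM. For 6 mural and smooth muscle markers, of which 4 were tested, the sum was 1121 to 1332 in EtOH and 1756 to 9071 in TAM. Of these 4, 2 were higher in TAM without overlap, as were 9.19% of all genes tested, and 1 had a negative log2FC. The part of the cells with these markers in the difference in Greb1 was not tested. In bulk RNA, fewer cells that express a gene and less of its RNA per cell cannot be told apart. Greb1l, the paralog of Greb1, had 28.8, 30.5 and 63.1 normalized counts in EtOH replicates 1, 2 and 3 and 21.3, 41.0 and 90.3 in TAM replicates 1, 2 and 3. Its groups overlapped and its log2FC was 0.17 (SE 0.58, limma adjusted p = 0.931).

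**Figure D1:**
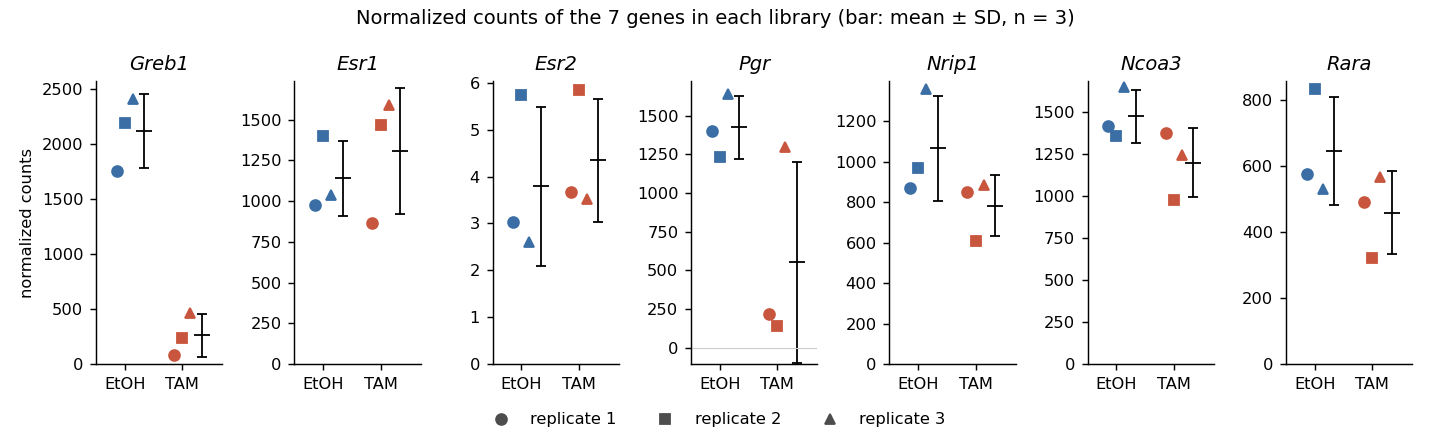
Normalized counts (y axes, 1 scale per gene) of the 7 genes in each of the 3 EtOH (blue) and 3 TAM (red) libraries, with the replicate number as the symbol and the mean ± SD beside the points. Greb1 is at 79.3 to 466 in TAM against 1751 to 2408 in EtOH, and Pgr is low in 2 of the 3 TAM libraries.

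The 2 receptor genes differed widely in level. Esr1 did not pass the test, and Esr2 was too low to be tested. Esr1 (ENSMUSG00000019768; chromosome 10 of mm9) encodes ERα, the receptor through which Greb1 is induced in breast cells. It had 978, 1401 and 1037 normalized counts in EtOH replicates 1, 2 and 3 and 865, 1465 and 1592 in TAM replicates 1, 2 and 3. The TAM values included both the lowest and the highest of the 6. The log2FC was 0.17 (SE 0.28, limma adjusted p = 0.838), with a 95% confidence interval from −0.48 to 0.82, so neither a modest fall nor a modest rise of Esr1 could be told from these samples. It was between 0.001 (without TAM replicate 3) and 0.44 (without TAM replicate 1) when a library was left out. Within same-numbered pairs the log2 difference was −0.18, 0.06 and 0.62 for replicates 1, 2 and 3. Cre-ERT2 contains a mutated ligand-binding domain of human ERα, and the methods do not say whether reads of this transgene could be counted on Esr1. Esr2 (ENSMUSG00000021055; chromosome 12) encodes ERβ and was below the minimum level for testing. It had 3.04, 5.74 and 2.60 normalized counts in EtOH replicates 1, 2 and 3 and 3.66, 5.85 and 3.52 in TAM replicates 1, 2 and 3. Esr2 was above 0 in every library at a few normalized counts, where a difference between the groups was not detectable.

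Pgr (ENSMUSG00000031870; chromosome 9), the progesterone receptor gene and a textbook readout of estrogen receptor activity, was low in TAM replicates 1 and 2 but not in 3. It had 1399, 1236 and 1637 normalized counts in EtOH replicates 1, 2 and 3 and 216, 143 and 1299 in TAM replicates 1, 2 and 3. TAM replicate 3 lay inside the range of the EtOH libraries, so the groups overlapped. The log2FC was −2.04 (SE 0.75, limma adjusted p = 0.304), with a 95% confidence interval from −3.80 to −0.28. The TAM value was 15.5%, 11.6% and 79.3% of that in the same-numbered EtOH library for replicates 1, 2 and 3, and with the replicate block the adjusted p was 0.170. Without TAM replicate 3 the log2FC was −3.00 (limma adjusted p = 0.0256), and with libraries weighted by their fit to the model it was −0.83 (adjusted p = 0.491). Over all genes tested, the SD of the log2 difference was 0.757, 0.995 and 0.772 in pairs 1, 2 and 3. A difference below −1 was found for 4.17%, 11.5% and 4.13% of these genes, and one above 1 for 7.03%, 10.6% and 6.74%. The reason for the higher Pgr in TAM replicate 3 was not tested. Greb1 was also least reduced in replicate 3, although there it was still below every EtOH value.

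Rara (ENSMUSG00000037992; chromosome 11) encodes the retinoic acid receptor α. It had 575, 832 and 529 normalized counts in EtOH replicates 1, 2 and 3 and 491, 320 and 565 in TAM replicates 1, 2 and 3. The groups overlapped, and the largest difference was in pair 2, with a log2 difference of −1.38. Its log2FC was −0.50 (SE 0.28, limma adjusted p = 0.497), with a 95% confidence interval from −1.16 to 0.16. The value rested in good part on pair 2, since it was −0.26 without TAM replicate 2, −0.30 without EtOH replicate 2 and −0.09 with library weights. Nrip1 (ENSMUSG00000048490; chromosome 16) encodes RIP140, a corepressor that binds ligand-bound nuclear receptors and is itself induced by estrogen. It had 868, 970 and 1361 normalized counts in EtOH replicates 1, 2 and 3 and 849, 609 and 887 in TAM replicates 1, 2 and 3. Nrip1, which holds the element printed above next to its start, was close to its EtOH value in pair 1 (97.8%) and lower in pairs 2 (62.8%) and 3 (65.2%). Its log2FC was −0.44 (SE 0.24, limma adjusted p = 0.487), with a 95% confidence interval from −1.01 to 0.13. It was −0.25 without EtOH replicate 3 and −0.27 without TAM replicate 2.

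Ncoa3 (ENSMUSG00000027678; chromosome 2) encodes SRC-3, a coactivator that joins ligand-bound receptors to histone acetyltransferases. It had 1418, 1356 and 1652 normalized counts in EtOH replicates 1, 2 and 3 and 1379, 974 and 1247 in TAM replicates 1, 2 and 3. The groups overlapped by little, since only TAM replicate 1 was above the lowest EtOH value. The log2FC was −0.31 (SE 0.19, limma adjusted p = 0.550), with a 95% confidence interval from −0.76 to 0.14, and −0.17 without TAM replicate 2. Exons of Sulf2 on the other strand overlap 1.95% of the exon bases of Ncoa3, and the strand setting of the counting is not given in the sources used here.

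Of the 5 members other than Greb1 that passed the filter, limma called 0, and 1, Pgr, had an unadjusted p under 0.05, as 13.4% of all genes tested did. With the replicate block 0 of the 5 were called as well. Greb1, Pgr, Nrip1 and Ncoa3 were lower in TAM in all 3 same-numbered pairs, as were 23.6% of all genes tested, and the groups did not overlap for Greb1 alone, where 11.4% of genes lay wholly lower in TAM. A log2FC of −1 or less was found for Greb1 and Pgr, 2 of the 6 members tested, and for 3.44% of all genes tested. These counts come from the contrast in which Greb1 was chosen and are descriptions.

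**Figure D2:**
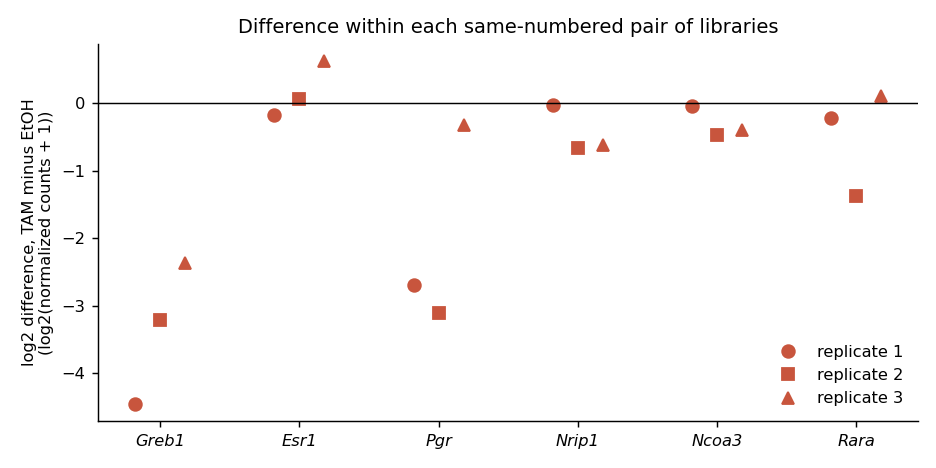
Difference in log2(normalized counts + 1) between the TAM and the EtOH library with the same replicate number (y axis) for the 6 genes that passed the filter on low values (x axis). Greb1 is at −4.45, −3.20 and −2.37 in replicates 1, 2 and 3, and Pgr is at −2.69, −3.10 and −0.33.

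Levels of different genes were compared as normalized counts per kb of exon. The deposited spans of Pgr, Ncoa3, Rara and Esr1 end before those of the annotation that gave the exon lengths. Their levels per kb may thus be too low, and the effect on the order was not tested. In EtOH the order was Pgr (298 ± 42.2, SD, n = 3), Greb1 (221 ± 35.0), Ncoa3 (187 ± 19.8), Rara (141 ± 35.7), Nrip1 (93.1 ± 22.7), Esr1 (83.3 ± 16.8) and Esr2 (1.13 ± 0.505). Pgr was above Greb1 in every EtOH library, with ranges of 259 to 343 and 183 to 251, whereas the ranges of Greb1 and Ncoa3, of Ncoa3 and Rara, of Rara and Nrip1, and of Nrip1 and Esr1 overlapped. In TAM Greb1 was 6th of the 7 at 27.2 ± 20.3 normalized counts per kb, below the range of each member except Pgr and Esr2. Pgr stood at 116 ± 136 in TAM, an SD larger than the mean. Esr2 was at 1.29 ± 0.388, below every other member in each library.

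Other genes of estrogen and retinoid biology were taken from lists compiled by function, of which 99 genes passed the filter. Limma called 0 of them without the replicate block, while an unadjusted p under 0.05 was reached by 7 that were higher and 10 that were lower, beside 6.67% and 6.70% of all genes tested. When the block was added 1 was higher (Cyp1b1) and 2 were lower, among them Ncoa1, where 1.00% and 0.615% of all genes tested were called in these directions. The groups did not overlap for 6 genes that were higher and 13 that were lower in TAM, beside 9.19% and 11.4% of all genes tested. The median log2FC over these lists was 0.01, and over all genes tested −0.03.

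Among 25 other nuclear receptors tested, 14 had a positive and 11 a negative log2FC, and the median was 0.15. Thra, a thyroid hormone receptor gene, had a log2FC of −1.01 (SE 0.28, limma adjusted p = 0.208), and Nr2c1, an orphan receptor gene, of −0.72 (SE 0.19, limma adjusted p = 0.192). Vdr, which encodes the vitamin D receptor, had 1110 ± 744 (SD, n = 3) normalized counts in EtOH and 2756 ± 718 (SD, n = 3) in TAM, a log2FC of 1.50 (SE 0.47, limma adjusted p = 0.254). For Pparg, the adipogenic receptor gene, the log2FC was 1.06 (SE 0.48, limma adjusted p = 0.403).

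Of 27 other receptor coregulators tested, 18 had a negative and 9 a positive log2FC, with a median of −0.11. Ncoa1 encodes SRC-1, which belongs to the same coactivator family as Ncoa3. It had 961, 938 and 2484 normalized counts in EtOH replicates 1, 2 and 3 and 440, 365 and 771 in TAM replicates 1, 2 and 3. The groups did not overlap, and EtOH replicate 3 was far above the other EtOH libraries, as was TAM replicate 3 among those of TAM. Its log2FC was −1.39, with an SE of 0.45 (limma adjusted p = 0.260) that became 0.18 (adjusted p = 0.0429) in the blocked fit. Ncoa2, the remaining gene of that family, had a log2FC of 0.15 (SE 0.35, limma adjusted p = 0.890), so its members had values of both signs. Carm1, a histone arginine methyltransferase gene, and Hdac3, a histone deacetylase gene of corepressor complexes, lay lower in TAM without overlap, at log2FCs of −0.31 (SE 0.17) and −0.30 (SE 0.16), and were not called.

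**Figure D3:**
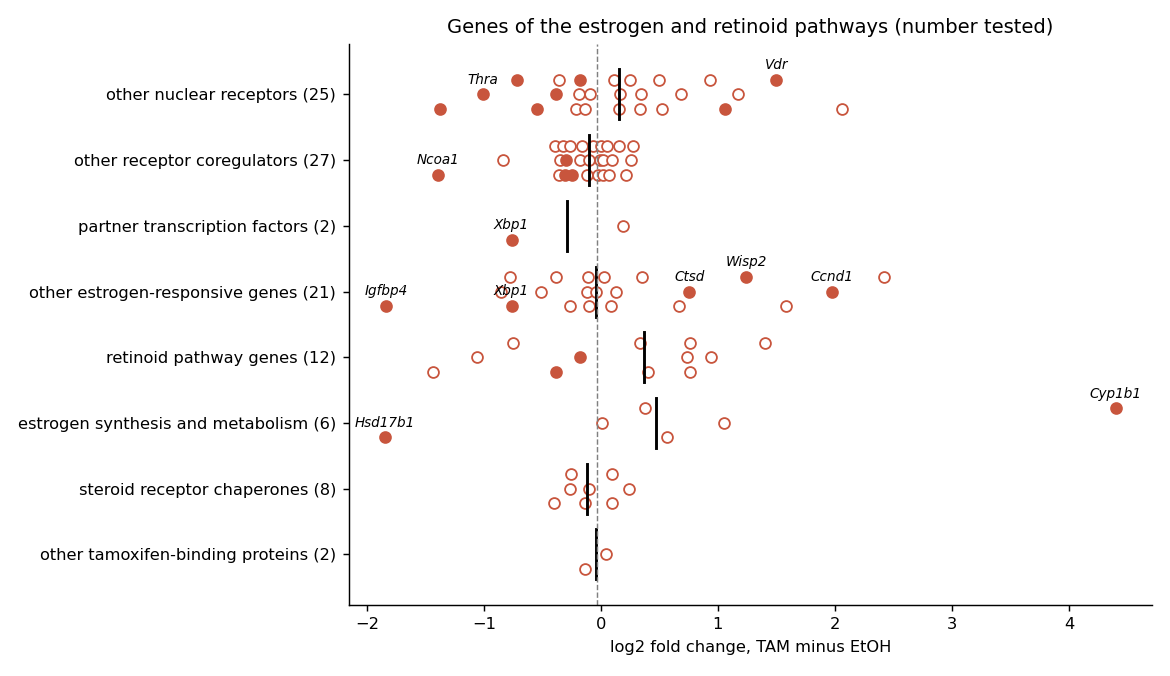
Log2FC (x axis, TAM minus EtOH) of the genes tested in each list (y axis, number tested in brackets), filled where the 2 groups of 3 libraries do not overlap, with the list median as a bar and the median of all genes tested as a dashed line. The list medians lie between −0.29 and 0.47, and Cyp1b1 is farthest from 0 at 4.40.

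Of 21 other estrogen-responsive genes tested, 10 had a positive and 11 a negative log2FC, with a median of −0.04. Igfbp4, which encodes a protein that binds and restrains insulin-like growth factors, had 340, 470 and 561 normalized counts in EtOH replicates 1, 2 and 3 and 161, 77.9 and 155 in TAM replicates 1, 2 and 3. All 3 TAM values lay below the EtOH values, and the log2FC was −1.83 (SE 0.34, limma adjusted p = 0.103). Xbp1, a transcription factor gene of the unfolded protein response that is co-expressed with ERα in breast tumours, had a log2FC of −0.76 (SE 0.18, limma adjusted p = 0.174). Wisp2, a CCN family gene induced by estrogen in breast cells, had 479, 342 and 465 normalized counts in EtOH replicates 1, 2 and 3 and 979, 1006 and 1022 in TAM replicates 1, 2 and 3. The TAM values were nearly alike and all above those of EtOH, with a log2FC of 1.24 (SE 0.19, limma adjusted p = 0.0628, and 0.0509 with the block). Ctsd, the gene of the lysosomal protease cathepsin D, had a log2FC of 0.75 (SE 0.19, limma adjusted p = 0.185). Ccnd1, which encodes cyclin D1, had 654 ± 318 (SD, n = 3) normalized counts in EtOH and 2968 ± 2594 (SD, n = 3) in TAM, where replicate 2 was at 5964, a log2FC of 1.98 (SE 0.63, limma adjusted p = 0.256).

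Of 6 tested genes of estrogen synthesis and metabolism, 5 had a positive log2FC. Cyp1b1 encodes a cytochrome P450 that hydroxylates estradiol. It had 115, 41.0 and 6.05 normalized counts in EtOH replicates 1, 2 and 3 and 1668, 440 and 441 in TAM replicates 1, 2 and 3. The lowest TAM value was well above the highest EtOH value, and the log2FC was 4.40 (SE 1.02, limma adjusted p = 0.160). The blocked fit gave it an SE of 0.53 (adjusted p = 0.0362). Hsd17b1 encodes an enzyme that makes estradiol from estrone. It was low throughout, at 21.3, 22.9 and 29.5 normalized counts in EtOH replicates 1, 2 and 3 and 7.97, 5.85 and 4.72 in TAM replicates 1, 2 and 3. It passed the minimum of 16.2 normalized counts through the EtOH libraries alone, so a difference in this direction was built into its being tested, and its log2FC of −1.84 (SE 0.47) is a description.

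Of 12 retinoid pathway genes tested, 7 had a positive and 5 a negative log2FC, with a median of 0.36. Only Rxrb and Rarg, both receptor genes, had groups that did not overlap in this list, at log2FCs of −0.38 (SE 0.21) and −0.18 (SE 0.15), and limma called neither. The 8 chaperones of steroid receptors had log2FCs with a median of −0.12 and no gene without overlap. Of 4 genes for other proteins reported to bind TAM, Ebp and Dhcr7 were tested, with log2FCs of 0.05 (SE 0.19) and −0.14 (SE 0.28). Of 6 partner transcription factors 2 were tested, Xbp1 among them, and 0 were called.

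Genes with a profile like that of Greb1 were found by the root mean square (r.m.s.) difference between the log2 values of the 6 libraries, each gene centred on its own mean. The nearest of the genes tested were Csrp2, Calml4, Spock3, Bmp8a and Zfp385b, at r.m.s. differences of 0.37, 0.47, 0.56, 0.57 and 0.58 on the log2 scale. A gene with no change at all would be at 1.83, and the median over the genes tested was 1.84. Csrp2, which encodes a LIM domain protein of the cytoskeleton and nucleus, had 2689, 3802 and 4822 normalized counts in EtOH replicates 1, 2 and 3 and 247, 330 and 860 in TAM replicates 1, 2 and 3. Its log2 difference in replicate 3, where it was least reduced, was −2.49. These genes were picked for their likeness to Greb1 in these same libraries, so a pattern shared with Greb1 follows from the selection. Calml4, a calmodulin-like gene, had means of 177 and 26.3 normalized counts in EtOH and TAM, and Spock3, a matrix proteoglycan gene, of 142 and 7.53. Bmp8a, close in sequence to its neighbour Bmp8b so that the assignment of its reads is uncertain, had means of 96.9 and 17.8, and Zfp385b, a zinc finger gene, of 108 and 11.2. Spock3 and Zfp385b passed the filter through their EtOH values alone.

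**Figure D4:**
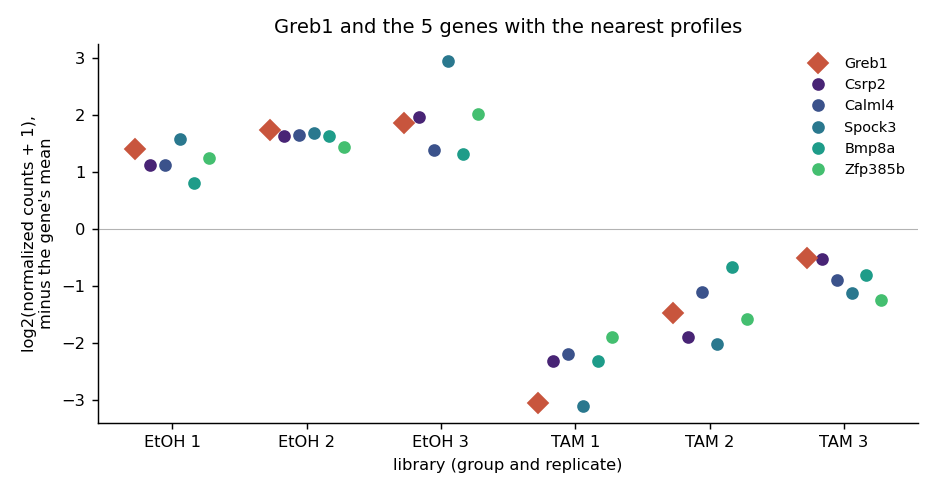
Log2(normalized counts + 1) minus the gene's own mean over the 6 libraries (y axis) for Greb1 (diamonds) and the 5 genes with the nearest profiles, in each library (x axis). All 6 genes lie above 0 in the EtOH libraries and below 0 in the TAM libraries, which follows from their selection by likeness to Greb1.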

How the data were processed

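RNA-seq covered 6 MSF samples, 3 per group. Reads were mapped to mm9 with TopHat, assigned to RefSeq genes with htseq-count and analysed by the study with edgeR and TMM normalization, without versions given. The signal deposited by the authors is 1 table of normalized counts, with genes as rows and libraries as columns. Its values are not whole numbers and its scaling is not stated, so read depth is not known and no count test was run. Samples were grouped by their labels. The members, gene lists and alternatives were chosen with earlier results of these data known. In R 4.3.3, limma 3.58.1 was fitted to log2(value + 1) with an intensity trend over all 11877 genes with at least 1 c.p.m. (16.2 normalized counts, from the mean library sum) in at least 3 libraries, two-sided. The code was also run on simulated data with independent libraries and no pairing, which does not test how well the model suits these samples. After subtracting each group's mean, the EtOH and TAM libraries of one number correlated across genes at r = 0.24, 0.29 and 0.42. Libraries of different numbers correlated at r from −0.31 to 0.04. Subtracting the group mean pushes the r of unlike numbers down where that of like numbers is positive, so their lower r is not separate evidence. The replicate numbers were taken to pair the libraries. The pairing rests on these numbers alone.

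All 7 members are named. Of each list, genes called with or without the block and the 3 largest rises and falls without overlap are named, besides the 5 profiles nearest to Greb1, with Greb1l, Ncoa2, Ebp and Dhcr7 added after their values were seen. A few listed genes are counted but not reported by name here. Of the listed genes, Rora, Ppargc1a and Sts were not analysed here, and Gpr30, Tcfap2a, Tcfap2c and Emr1 were taken for Gper1, Tfap2a, Tfap2c and Adgre1. Exon lengths and positions come from GENCODE vM1 on NCBIM37 (mm9), and table starts were moved by 1 base to count from 1. Promoter sequences are from RefSeq (GRCm38.p6). The search window of 50 kb was chosen after seeing the sequence. Alternatives were pseudocounts of 0.1 and 10, no filter, at least 10 in every library, equal library sums, median-ratio scaling, the replicate block, library weights, and leaving out each library.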

Additional observations from a re-analysis of the deposited data

How the results depend on the processing

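The log2FC of Greb1 stayed between −3.92 and −2.65 under all 14 alternatives (−3.92 to −2.66 with each library left out). Those of Pgr, Rara, Nrip1 and Ncoa3 stayed negative and that of Esr1 positive, with each library left out at −3.00 to −1.41, −0.67 to −0.26, −0.58 to −0.25, −0.42 to −0.17 and 0.001 to 0.44. Library weights moved Rara to −0.09, Pgr to −0.83 and Esr1 to 0.46. The only call among these 5 genes was that of Pgr without TAM replicate 3 (1 gene against 0). The genes called over the table, 29, became 17 without a filter, 18 with at least 10 in every library, 192 with the replicate block, 742 with library weights and 0 to 15 with a library left out (0 without EtOH replicate 1, EtOH replicate 3 or TAM replicate 1, 2 without EtOH replicate 2, 5 without TAM replicate 2 and 15 without TAM replicate 3). Of the 99 pathway genes tested, 0 were called, 3 with the replicate block and 9 with library weights (C3, Ctsd, Hsd17b1, Igfbp4, Myc, Thra, Thrb, Wisp2 and Xbp1). Beside them, 192 and 742 of all 11877 genes tested were called in these fits. Hsd17b1 passed the filter through the EtOH libraries alone, so its call in the weighted fit is no evidence of a fall. The causes of these changes in the calls were not tested. All 29 calls without the block were among those with it, and the block changed no call of a member with a test. Equal library sums moved the median log2FC of all genes from −0.03 to 0.08, so list medians near 0 carry no direction. Esr2 is limited by its low level, and without the filter its log2FC was 0.19 (SE 0.45, limma adjusted p = 0.885).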
